A study of Arabidopsis thaliana with 57 samples.

Results

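The GASA family of Arabidopsis thaliana was followed through stress and recovery in rosette leaves. Its members were taken by locus identifier: 9 genes, GASA1 to GASA6, GASA9, GASA10 and GASA14, of the 28775 genes measured by RNA sequencing. The family was chosen by the measured levels of GASA6, which showed some of the deepest falls at the ends of the stresses. Its values in comparisons that involve an end-point or the control are therefore given as a description, without a test.

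The plants were wild type of the accession Col0, harvested as rosettes at 18 days, 6 hours after lights on. All groups shared a 12 hour day and 65% relative humidity before stress. Control plants belonged to the recovery setup and were kept at 22 °C in the light and 18 °C in the dark, with light of 120 µmol m-2 s-1. End-point plants entered stress on day 15 and were taken at its end. Recovery plants entered stress on day 12 and then spent 3 days back in the standard regime. Heat meant 27 °C days with 23 °C nights. High light, HL in the labels, was set to 350 µmol m-2 s-1. Cold meant 12 °C days with 8 °C nights, at 80 µmol m-2 s-1 in the cold groups and 200 µmol m-2 s-1 in the cold-high light groups. Drought was a shortage of water, and humidity meant sealed trays holding excess water. Heat-drought and heat-high light joined these conditions. Each of the 17 groups held 3 libraries, 51 in all, and all 8 stresses were compared with the same 3 control libraries. Nothing in the labels says that the libraries came from separate cultures, so the tests take their error from the scatter of these libraries, part of which may be technical.

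GASA genes encode small secreted peptides with a conserved run of cysteines, and the founding members were named for their response to the hormone gibberellin. Gibberellin promotes growth by triggering the destruction of DELLA proteins, which hold growth genes in check. GASA peptides are known from cell elongation, flowering, seed development and germination, and responses to stress. GASA2 and GASA3 are known as genes of maturing siliques and dry seeds, GASA6 promotes seed germination, and GASA14 promotes leaf expansion. GASA4 promotes flowering and GASA5 delays it, and GASA10 encodes a protein of the cell wall.

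In TAIR10.1, the RefSeq assembly of the reference genome, GASA2 (AT4G09610) lies at chr4:6074770-6075645 and GASA3 (AT4G09600) at chr4:6072804-6073646. Both are on the minus strand, with 1123 bases and 0 genes between them. Their coding sequences, 300 bases each, were identical at 86% of 300 alignment columns. They shared an identical run of 35 bases, against at most 21 bases in the 35 other pairs of members. Reads of 150 bases are longer than that run of 35 bases. Whether any reads of one of these neighbours were assigned to the other was not tested. GASA6 (AT1G74670) lies at chr1:28053030-28054149 on the plus strand, where its last 206 bases overlap AT1G74675 on the minus strand. GASA9 (AT1G22690, chr1:8027126-8028168, plus strand) shares 11 bases with the minus-strand gene AT1G22700. Whether counting used strand is not given, so reads of such antisense partners cannot be told apart. GASA1 is AT1G75750 (chr1:28441501-28442435, minus strand) and GASA14 is AT5G14920 (chr5:4826141-4828384, plus strand). GASA4 is AT5G15230 (chr5:4944816-4946299, plus strand) and GASA5 is AT3G02885 (chr3:637921-639242, minus strand). GASA10 is AT5G59845 (chr5:24111304-24112100, plus strand).

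The 250 bases upstream of the annotated gene start are printed for GASA3 and GASA2, the neighbours that rose together in drought, and for GASA9 and GASA6, which were both low there. Sequences are from RefSeq's TAIR10.1, 5′ to 3′ on the gene's own strand. Capitals mark ACGTG, the core of the abscisic acid response element, or TAACAAA, the gibberellin response element, on either strand.
GASA3, chr4:6073647-6073896, minus strand: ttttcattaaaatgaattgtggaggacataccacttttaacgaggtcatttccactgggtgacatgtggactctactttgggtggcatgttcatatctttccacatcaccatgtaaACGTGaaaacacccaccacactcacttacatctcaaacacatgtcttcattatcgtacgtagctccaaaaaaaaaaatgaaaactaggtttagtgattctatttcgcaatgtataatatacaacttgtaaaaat
GASA2, chr4:6075646-6075895, minus strand: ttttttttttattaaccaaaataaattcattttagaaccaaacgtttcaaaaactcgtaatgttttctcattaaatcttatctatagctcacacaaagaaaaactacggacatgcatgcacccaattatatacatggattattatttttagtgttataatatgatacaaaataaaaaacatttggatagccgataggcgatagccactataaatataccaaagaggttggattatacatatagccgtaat
GASA9, chr1:8026876-8027125, plus strand: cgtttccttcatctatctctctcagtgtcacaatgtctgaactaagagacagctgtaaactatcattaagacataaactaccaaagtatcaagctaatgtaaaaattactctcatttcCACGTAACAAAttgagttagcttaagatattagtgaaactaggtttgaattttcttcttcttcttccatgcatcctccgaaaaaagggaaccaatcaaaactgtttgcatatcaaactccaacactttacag
GASA6, chr1:28052780-28053029, plus strand: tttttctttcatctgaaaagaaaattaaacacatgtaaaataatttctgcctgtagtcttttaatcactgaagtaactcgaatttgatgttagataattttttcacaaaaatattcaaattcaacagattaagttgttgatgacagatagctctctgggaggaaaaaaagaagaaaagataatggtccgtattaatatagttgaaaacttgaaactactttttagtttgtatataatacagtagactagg

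The capitals in GASA3 are an ACGTG at position -134 from the gene start. In GASA9 they join an ACGTG read on the opposite strand (-132) to a TAACAAA (-128), which overlap by a single letter. Neither motif was found in the windows of GASA2 and GASA6. Among the other members, ACGTG occurred in GASA4 (-29) and GASA5 (-30), and neither motif in GASA1, GASA10 or GASA14. Of 27443 windows of the same length over the genome, 22.9% held ACGTG and 16.1% held TAACAAA. Also searched on both strands were CACGTG, the full G-box that contains ACGTG (6.49% of windows), and CCGAC, the core of the dehydration-responsive element (12.0%), which no member's window held. Matches are letters only.

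Values are regularized log counts (rlog, on a log2 scale), a form that pulls weakly counted genes towards their mean. Their depth is unknown. Per exonic kilobase in control leaves, the order of the rlog level was GASA6 11.8, GASA4 11.1, GASA1 10.3, GASA9 9.47, GASA14 9.30, GASA10 5.06, GASA5 4.71, GASA2 3.84 and GASA3 2.47. GASA2 and GASA3 were thus the lowest of the 9 in unstressed leaves. Libraries of some groups had higher medians over genes than the control, by 0.73 for heat-drought, 0.54 for drought, 0.51 for cold-high light, 0.34 for cold, and 0.13 for high light. In recovery the gap was 0.12 after drought and 0.10 after high light, and in heat-high light it was 0.10. Levels below are as deposited. Differences are relative to the library median, in log2 units with the standard error (SE, 3 libraries a group), unless stated, and passed when the adjusted p of limma's test was under 0.05. In bulk leaves, fewer cells of a type and less RNA per cell cannot be told apart.

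All 4 leaf markers checked (RBCS1A, LHCB1.3, RCA and BCA1) lay between 13.5 and 19.0 in every library. Seed markers stayed at the foot of the table in every library, with highest levels of 2.18 for CRA1, -2.32 for CRU3 and -2.26 for SESA1. Root hair markers were at most -0.095. Among flower markers AG averaged 3.63 and PI 2.90, and AP3 was at most -0.277. The meristem marker STM averaged 6.20, while WUS and CLV3 were at most -2.32 and -1.37. Replicate 2 of cold-high light recovery stood apart, with RBCS1A at 14.8 against 17.9 and 18.1 in its partners, and results that rest on it are given with and without it.

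Members passed in both directions under drought and heat-drought, where most of the genes tested passed too. Of the 6 members tested in every group (GASA1, GASA4, GASA5, GASA9, GASA10 and GASA14), 4 were lower and 1 higher than the control at the end of drought, and 5 were lower and 1 higher at the end of heat-drought. Over all 19010 genes tested, drought left 42.2% lower and 25.3% higher, and heat-drought left 46.5% lower and 32.2% higher. As deposited, 3 members were lower and 2 higher in drought, where 9.57% of all genes were lower and 61.4% higher. In heat-drought 4 were lower and 1 higher as deposited, where 13.2% of all genes were lower and 66.7% higher. Humidity, the opposite water regime, raised 3 members and lowered 0, where 3.58% of all genes were higher and 2.31% lower. Relative to the library median, the leaf markers RBCS1A, RCA, BCA1 and LHCB1.3 were below every control library in all drought and heat-drought libraries. As deposited this held for RBCS1A, RCA and BCA1, while LHCB1.3 read 18.69, 18.67 and 18.09 in drought and 18.50, 18.39 and 18.42 in the control. The part of this in the members' values was not tested.

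GASA6 stood at 11.56, 11.66 and 11.65 in control replicates 1 to 3. At the end of drought it read 9.18, 9.34 and 8.47, and at the end of heat-drought 9.40, 9.0 and 9.0. It read 9.88, 10.00 and 10.25 in cold and 8.94, 8.85 and 8.41 in cold-high light. In all 4 of these groups each library lay below every control library. High light gave 10.83, 10.72 and 10.73, again without overlap with the control. Relative to the library median the differences were -3.16 in drought, -3.22 in heat-drought, -1.92 in cold, -3.40 in cold-high light and -0.99 in high light, each with an SE of 0.27. The differences in heat (0.01), heat-high light (-0.13) and humidity (-0.15) were smaller, and their libraries overlapped the control range. In heat the libraries spread widely, at 11.26, 12.30 and 11.62. The smallest of the 5 falls was that in high light and the nearest value outside them was that in humidity. Between stresses, the GASA6 difference was -1.48 ± 0.27 for cold-high light against cold, and it was higher by 0.86 ± 0.27 in heat-high light than in high light. Heat-drought and drought differed by -0.06 ± 0.27, and their libraries overlapped. Ordered by level, drought, heat-drought and cold-high light overlapped one another at the bottom, and cold and high light each stood clear of their neighbours.

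**Figure D1:**
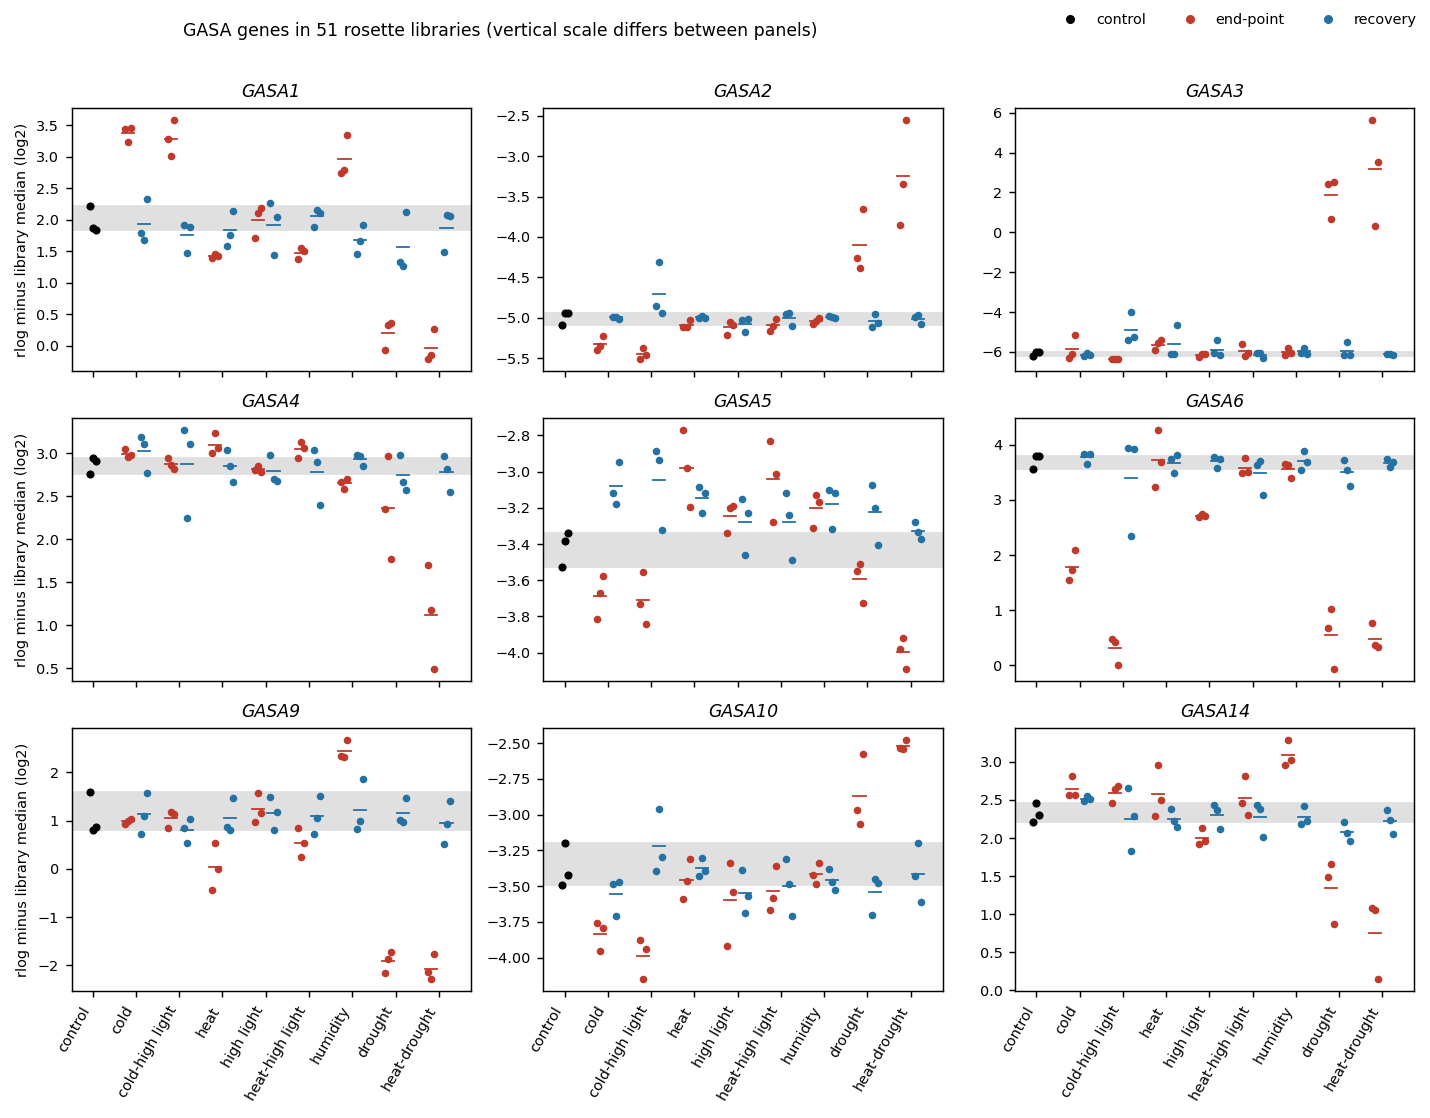
Level of each of the 9 genes in each of 51 libraries, as rlog minus the library median (log2), with end-point libraries in red, recovery libraries in blue and control libraries in black. Short lines are means of 3 libraries, the grey band spans the control libraries, and the vertical scale differs between panels. GASA3 leaves the bottom of its panel in drought and heat-drought, and GASA6 falls in 5 end-point groups.

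GASA3 showed the opposite course in drought. It read 1.79, 1.84 and 1.86 in control libraries, 10.92, 9.0 and 11.05 at the end of drought, and 14.27, 8.94 and 12.18 at the end of heat-drought. Every library of these 2 groups lay far above all others, the next highest being 4.12 in replicate 2 of cold-high light recovery. The group means were 10.3 ± 1.15 and 11.8 ± 2.68 (SD, n = 3), so the spread within heat-drought was wide. GASA3 and GASA2 passed the filter on low values through these 2 groups alone, and the adjusted p values given for them come from the limma fit without that filter, over 21505 genes, except where a value is said to be from the filtered genes. GASA3 was higher by 7.96 ± 0.64 in drought (adjusted p = 1.456e-12) and by 9.23 ± 0.64 in heat-drought (adjusted p = 6.561e-15). Heat-drought exceeded drought by 1.27 ± 0.64, which did not pass (adjusted p = 0.0978). In humidity GASA3 read 1.87, 2.18 and 1.87, far under the drought libraries. The seed storage markers CRA1, CRU3 and SESA1 were at most 2.18, -2.32 and -2.26 in every library, also where GASA3 was high. CRA1 averaged 1.97 over all libraries and 1.96 without drought and heat-drought.

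GASA2, its neighbour, read 2.92 in each control library. It reached 4.24, 3.92 and 4.89 in drought and 4.78, 5.30 and 6.11 in heat-drought. Both sets of libraries lay above every control library. The differences were 0.90 ± 0.17 (adjusted p = 1.76e-05) and 1.74 ± 0.17 (adjusted p = 1.389e-11). GASA2 was also higher in heat-drought than in drought, by 0.85 ± 0.17 (adjusted p = 0.0001956), and by 0.50 without replicate 3 of heat-drought. The call in heat-drought against drought was lost when only the compared groups were fitted (adjusted p = 0.140, from the filtered genes). In all 3 control libraries and in most others GASA2 sat at a floor near 2.92. A difference of -0.46 in cold-high light (adjusted p = 0.0204) turned to 0.06 as deposited.

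Both neighbours rose in the same libraries as established genes of abscisic acid and drought. RAB18, a dehydrin, read 18.1, 16.3 and 18.9 in drought and 16.9, 17.0 and 20.7 in heat-drought, where control leaves had 9.03, 8.35 and 8.85. RD29B, another abscisic acid-induced gene, went from 5.49, 3.76 and 4.41 in the control to 16.2, 12.8 and 14.03 in drought and 14.1, 14.4 and 17.6 in heat-drought. RAB18 and RD29B were picked after their values were seen. In drought replicate 2 was the lowest for GASA3, GASA2, RAB18 and RD29B alike. In heat-drought replicate 3 was the highest for GASA2, RAB18 and RD29B but not for GASA3, whose highest was replicate 1.

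GASA10 joined the members that rose. Its levels were 4.52, 4.67 and 4.44 in the control, 5.54, 5.24 and 5.96 in drought and 6.11, 6.10 and 6.18 in heat-drought, without overlap. The difference was 0.50 ± 0.13 in drought (adjusted p = 0.000767) and 0.85 ± 0.13 in heat-drought (adjusted p = 1.326e-07). As deposited these were 1.04 and 1.59. GASA10 was also 0.35 ± 0.13 higher in heat-drought than in drought (adjusted p = 0.0245), a call lost without heat-drought replicate 3 (0.33) or drought replicate 1 (0.30) or 2 (0.25), or with only the compared groups fitted (adjusted p = 0.141).

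GASA9 and GASA1 carried the deepest tested falls. GASA9 read 9.61, 8.67 and 8.74 in the control, 6.34, 6.45 and 6.80 in drought and 6.5, 6.35 and 6.88 in heat-drought. It differed by -3.01 ± 0.28 in drought (adjusted p = 3.864e-11) and by -3.17 ± 0.28 in heat-drought (adjusted p = 3.138e-12). GASA1 read 10.23, 9.72 and 9.70 in the control, 8.44, 8.64 and 8.89 in drought and 8.43, 8.50 and 8.93 in heat-drought. Its differences were -1.77 ± 0.22 (adjusted p = 1.668e-08) and -2.0 ± 0.22 (adjusted p = 4.186e-10). No drought or heat-drought library of either gene overlapped the control. For neither gene did heat-drought differ from drought beyond the spread (GASA9 -0.15, adjusted p = 0.682; GASA1 -0.24, adjusted p = 0.398).

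GASA14, with a proline-rich stretch before the conserved domain, fell from 10.22, 10.32 and 10.16 in the control to 9.99, 9.97 and 9.40 in drought. It read 9.72, 9.69 and 8.81 in heat-drought. The falls were -0.98 ± 0.20 (adjusted p = 4.496e-05) and -1.56 ± 0.20 (adjusted p = 6.027e-09), and replicate 3 was lowest in both groups. GASA4 parted the 2 droughts. Its levels were 10.77, 10.81 and 10.78 in the control, 10.86, 11.28 and 10.30 in drought and 10.34, 9.82 and 9.15 in heat-drought. The drought libraries spanned the control, while all heat-drought libraries lay below it. GASA4 fell by 1.75 ± 0.23 in heat-drought (adjusted p = 1.39e-08). In drought it differed by -0.51 ± 0.23 (adjusted p = 0.0475). This value turned to 0.03 as deposited, was -0.21 without drought replicate 3 (adjusted p = 0.444) and -0.81 without drought replicate 2. The call was also lost without drought replicate 1 or any 1 control library, and with only the compared groups fitted (adjusted p = 0.181). GASA5 read 4.48, 4.48 and 4.52 in the control and 4.66, 4.72 and 4.57 in heat-drought. It fell by 0.58 ± 0.12 relative to the library median (adjusted p = 2.028e-05) but differed by 0.15 as deposited, and by -0.17 under quantile normalization, neither of which passed.

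**Figure D2:**
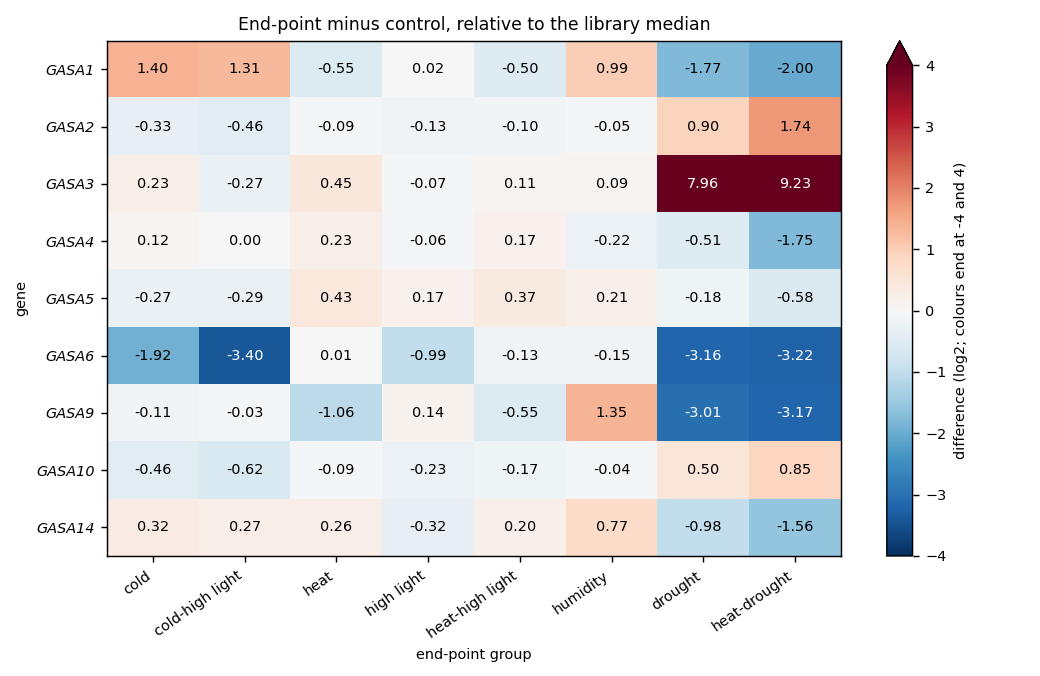
Difference of each end-point group from the control, as log2 relative to the library median, for 9 genes (rows) in 8 stresses (columns). Red is higher than the control, blue is lower, and colours end at -4 and 4, so the GASA3 cells at 7.96 and 9.23 lie beyond the scale. GASA1, GASA9 and GASA14 are red in humidity and blue in drought.

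Humidity raised GASA9, GASA1 and GASA14, all of which fell in drought. GASA9 read 10.34, 10.28 and 10.59 at the end of humidity and was higher by 1.35 ± 0.28 (adjusted p = 0.00224). GASA1 read 10.75, 10.75 and 11.27 and was higher by 0.99 ± 0.22 (adjusted p = 0.00447), or 0.79 without humidity replicate 3 (adjusted p = 0.0763). GASA14 read 10.96, 11.25 and 10.95 and was higher by 0.77 ± 0.20 (adjusted p = 0.0132). For none of the 3 genes did the 3 humidity libraries overlap the control. How many of all genes have libraries without overlap was not counted, here or for the other stresses. The GASA14 call was lost without humidity replicate 2 (0.67, adjusted p = 0.0645) or control replicate 1 (0.71, adjusted p = 0.0601) or 3 (0.76, adjusted p = 0.0560).

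Setting drought directly against humidity, with no control library involved, 4 of the 6 members were lower in drought and 1 was higher, and 66.8% of all genes differed. Drought minus humidity was -4.36 ± 0.28 for GASA9 (adjusted p = 2.559e-15), -2.75 ± 0.22 for GASA1 (adjusted p = 5.534e-13) and -1.75 ± 0.20 for GASA14 (adjusted p = 1.223e-09). GASA10 was higher by 0.54 ± 0.13 (adjusted p = 0.000298). For GASA5 it was -0.39 ± 0.12 (adjusted p = 0.00308), which turned to 0.096 as deposited. GASA3 and GASA2 were higher by 7.86 ± 0.64 (adjusted p = 1.297e-12) and 0.94 ± 0.17 (adjusted p = 8.024e-06). Untested, the GASA6 value was -3.02 ± 0.27.

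Cold moved GASA1 and GASA6 in opposite directions. In cold GASA1 read 11.77, 11.50 and 11.61, and in cold-high light 11.72, 11.43 and 11.97, all above the control. It rose by 1.40 ± 0.22 (adjusted p = 7.219e-06) and by 1.31 ± 0.22 (adjusted p = 6.894e-06), the same libraries in which GASA6 was low. Of the 6 members, 1 was higher and 1 lower in cold, where the shares of all genes were 18.3% higher and 21.7% lower. In cold-high light 1 was higher and 2 lower, where 23.3% were higher and 29.4% lower. As deposited 3 were higher and 0 lower in each of these groups. The shares of all genes as deposited were 54.2% higher and 2.17% lower in cold, and 68.2% and 2.53% in cold-high light. The lower calls were GASA10, by -0.46 ± 0.13 in cold (adjusted p = 0.00364) and -0.62 ± 0.13 in cold-high light (adjusted p = 8.619e-05), and GASA5 by -0.29 ± 0.12 in cold-high light (adjusted p = 0.0300). As deposited GASA10 differed by -0.12 and -0.11, which did not pass, and GASA5 by 0.22. The GASA5 call was lost without cold-high light replicate 1 or 3 or control replicate 2 or 3, with values from -0.28 to -0.23. GASA14 was 0.27 ± 0.20 higher in cold-high light relative to the median (adjusted p = 0.251) and 0.79 as deposited (adjusted p = 0.000179). Adding high light to cold changed 0 of the 6 members (unadjusted p also over 0.05 for each), where 3.31% of all genes differed.

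In heat, high light and heat-high light, 0 of the 6 members passed limma's test, with an unadjusted p under 0.05 for 3, 0 and 2 of them. As deposited GASA5 passed in heat (0.52) and heat-high light (0.48), where 130 and 169 of 19010 genes passed. The share of all genes that passed was 0.368% higher and 0.431% lower in heat, 0.405% and 0.689% in high light, and 0.158% and 0.0842% in heat-high light. GASA9 read 7.60, 8.57 and 7.93 in heat, all below the control, with a difference of -1.06 ± 0.28 (adjusted p = 0.0621). GASA1 read 9.42, 9.49 and 9.36 in heat, also below every control library, and differed by -0.55 ± 0.22 (adjusted p = 0.246). GASA5 read 5.26, 5.06 and 4.74 in heat and differed by 0.43 ± 0.12 (adjusted p = 0.0584). When only the compared groups were fitted, adjusted p was 0.0111 for GASA1 and 0.0397 for GASA5 in heat, 0.0235 for GASA1 in heat-high light (0.0584 with the replicate block) and 0.0293 for GASA14 in high light. Those fits called 802 of 19010 genes in heat, 882 in high light and 569 in heat-high light. Quantile normalization gave 0.0300 for GASA9 in heat, where it called 500 of 19010 genes.

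In these 3 comparisons libraries of the same replicate number deviated together, so the replicate-blocked limma fit of the compared groups alone is given where it changed the call. With the block, adjusted p in heat was 0.0026 for GASA1, 0.0446 for GASA4 (0.23) and 0.0270 for GASA5. GASA3, which joined the filtered genes only through drought and heat-drought, also passed in heat with the block (0.45, adjusted p = 0.000969 over those genes). It read 2.12 to 2.52 in heat, and did not pass in limma's fit of all libraries without the filter (adjusted p = 0.761). In heat-high light it was 0.0318 for GASA4 (0.17), 0.0417 for GASA5 (0.37) and 0.000306 for GASA9 (-0.55), and in high light 0.0046 for GASA14 (-0.32). For GASA9 in heat the block gave 0.376 in the compared groups alone and 0.0269 over all libraries. In the compared groups alone the block called 1902 of 19010 genes in heat, 1811 in high light and 1229 in heat-high light. Over all libraries it called 232 genes in heat. Heat-high light against high light changed 0 of the 6 members, 3 of them with an unadjusted p under 0.05, where 1.32% of all genes differed. The largest of these differences were -0.69 ± 0.28 for GASA9 (adjusted p = 0.241), 0.52 ± 0.20 for GASA14 (adjusted p = 0.198) and -0.53 ± 0.22 for GASA1 (adjusted p = 0.264, or 0.0441 in the compared groups alone). With those groups alone, 731 of 19010 genes differed between heat-high light and high light.

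Some members differed between the 2 droughts. Between heat-drought and drought, 3 of the 6 members were lower and 1 higher, where 44.2% of all genes differed. Heat-drought minus drought was -1.24 ± 0.23 for GASA4 (adjusted p = 6.579e-05), -0.58 ± 0.20 for GASA14 (adjusted p = 0.0168) and -0.40 ± 0.12 for GASA5 (adjusted p = 0.00513). When only the compared groups were fitted, adjusted p was 0.105, 0.204 and 0.0832. As deposited GASA5 and GASA14 did not pass (adjusted p = 0.156 and 0.0734). Without heat-drought replicate 3 the GASA14 value was -0.27 (adjusted p = 0.302). The GASA14 call was also lost without drought replicate 1 (-0.50) or 2 (-0.42). The interaction of heat with drought passed for 3 of the 6 members, where 16.2% of all genes passed. It was -1.47 ± 0.32 for GASA4 (adjusted p = 0.00248), -0.83 ± 0.16 for GASA5 (adjusted p = 0.000754) and -0.84 ± 0.28 for GASA14 (adjusted p = 0.0356). For GASA2 it was 0.94 ± 0.24 (adjusted p = 0.00807 without the filter). Fitting the compared groups alone left GASA5 (adjusted p = 0.0473) and not GASA4 (0.121), GASA14 (0.230) or, from the filtered genes, GASA2 (0.199). That fit called 86 of 19010 genes. Heat by high light passed for 0 of the 6, with an unadjusted p under 0.05 for 0, where 0.00526% of all genes passed.

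Over all 48 pairs of member and end-point, 7 were higher and 12 lower relative to the library median, where 12.9% and 17.9% of all gene and end-point pairs were. As deposited 14 were higher and 7 lower, where 32.4% and 3.67% of all gene and end-point pairs were higher and lower.

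After 3 days of recovery no member was told apart from the control. Of the 48 pairs of member and recovery group, 0 differed from the control in limma's test, and 4 had an unadjusted p under 0.05, all of GASA5. The lowest adjusted p was 0.325, and the differences ran from -0.41 to 0.37. In the fits of the compared groups alone 0 members passed, 6 had an unadjusted p under 0.05 and the lowest adjusted p was 0.1004. Those fits called 0.581% of all gene and recovery pairs, among them 802 genes after drought and 76 after cold-high light. In the fit of all libraries the share of all genes that differed from the control was 0 in recovery from cold, from cold-high light, from heat, from high light, from heat-high light, from humidity, from drought and from heat-drought. GASA5 was above the control by 0.34 ± 0.12 after cold and 0.37 ± 0.12 after cold-high light, with adjusted p of 1.00 and 0.325. Without cold-high light recovery replicate 3 the GASA5 value was 0.50 (adjusted p = 0.0120). Without replicate 2 of that group, the library that stood apart, it was 0.31 (adjusted p = 0.9998).

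GASA3 returned to 1.85, 2.6 and 1.81 after drought and to 1.81, 1.80 and 1.83 after heat-drought. Recovery minus end-point was -7.82 ± 0.64 (adjusted p = 2.36e-12) and -9.27 ± 0.64 (adjusted p = 6.699e-15). For GASA2 it was -0.94 ± 0.17 (adjusted p = 9.468e-06) and -1.76 ± 0.17 (adjusted p = 1.117e-11), and all its recovery libraries after these stresses read between 2.92 and 3.14. GASA6, untested, read 11.75, 11.63 and 11.24 after drought, 11.64, 11.48 and 11.68 after heat-drought and 11.73, 11.56 and 11.75 after cold. After cold-high light it read 11.78, 10.46 and 11.77, where the low value belongs to replicate 2, the library that stood apart. Its difference from the control there was -0.31 with that library and 0.22 without it, and over the other 7 recovery groups the difference ran from -0.23 to 0.06.

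Recovery against the end-point moved 5 of the 6 members after drought and 6 after heat-drought, where 63.9% and 78% of all genes differed. GASA9 rose again by 3.07 ± 0.28 (adjusted p = 2.869e-11) and 3.02 ± 0.28 (adjusted p = 1.012e-11). GASA1 rose by 1.36 ± 0.22 (adjusted p = 2.591e-06) and 1.90 ± 0.22 (adjusted p = 1.466e-09), and GASA10 fell by 0.67 and fell by 0.89. GASA14 rose by 0.74 and 1.46, the first of which did not pass as deposited (0.325), and GASA4 by 1.66 after heat-drought. GASA5 rose by 0.37 and 0.67 relative to the library median, which turned to -0.048 and -0.049 as deposited. After humidity 3 members came down, where 7.55% of all genes differed. These were GASA1 (-1.28 ± 0.22), GASA9 (-1.21 ± 0.28) and GASA14 (-0.82 ± 0.20), and the GASA9 call was lost without humidity recovery replicate 1 (-1.01, adjusted p = 0.0643) and with only the compared groups fitted (adjusted p = 0.0751). After cold 2 members moved, where 38.1% of all genes differed, and after cold-high light 3 moved, where 59.3% did. GASA1 fell by 1.45 ± 0.22 and fell by 1.53 ± 0.22 (adjusted p = 5.213e-06 and 3.486e-07). GASA5 rose by 0.61 and 0.66, and GASA10 rose by 0.77 after cold-high light. As deposited these rises of GASA5 and GASA10 did not pass, at 0.27, 0.17 and 0.28. Without cold-high light recovery replicate 2 the values after cold-high light were -1.39 for GASA1, 0.61 for GASA5 and 0.64 for GASA10, and all still passed. After heat, high light and heat-high light 0 of the 6 moved in limma's test, with an unadjusted p under 0.05 for 1, 0 and 2 of them, where 0.757%, 1.84% and 0.184% of all genes did.

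In all, 12 of 48 pairs were higher in recovery than at the end-point and 7 lower, where 17.8% and 13.5% of all gene and stress pairs were. As deposited 6 were higher and 11 lower, where 3.94% and 31.2% of all pairs were. Recovery groups were also compared among themselves, without the control, in a moderated F test in which GASA6 could be tested too. Of 7 members 0 passed, with an unadjusted p over 0.05 for each, and 0.0158% of all genes did. The adjusted p was 0.955 for GASA6 and 0.560 for GASA10, the lowest. Without cold-high light recovery replicate 2 they were 0.970 and 0.972.

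**Figure D3:**
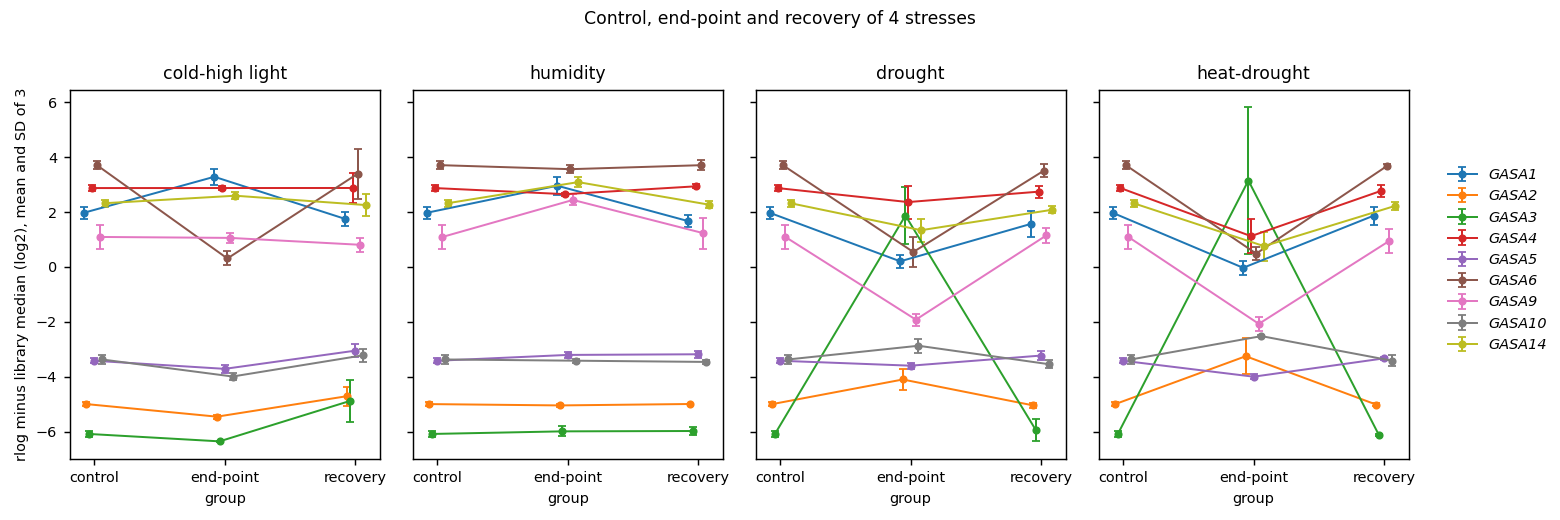
Mean level of 9 genes in the control, at the end-point and in recovery for 4 stresses, as rlog minus the library median (log2), with bars for the SD of 3 libraries. Lines join separate plants of the 3 groups. In drought GASA3 rises above every member but GASA4, in heat-drought above all the others, and it returns to the bottom, while GASA6, GASA9 and GASA1 dip and return. The GASA6 bar in cold-high light recovery is long because of replicate 2 (10.46).

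The members did not share a pattern over the groups. Between group means over 17 groups, Pearson's r was 0.94 for GASA2 with GASA3, 0.81 for GASA1 with GASA9 and 0.83 for GASA1 with GASA14, but 0.17 for GASA1 with GASA6. These points share libraries and are a description. GASA2 and GASA3 were high in drought and heat-drought alone, so their r values, with each other and with other genes, rest largely on those groups. For GASA2 with GASA10 r was 0.96. The genes nearest to GASA6 were ROPGAP3 (r = 0.981), EXPA8 (0.979), AT5G45469 (0.976), G6PD1 (0.976) and NF-YC1 (0.975). EXPA8 encodes an expansin, a wall-loosening protein, and its group means spanned 3.96 log2 units. Nearest to GASA1 were ACT2 (0.955) and TUB4 (0.953), and to GASA9 SMT1 (0.987) and sks9 (0.982). GASA14 ran closest to EXL3 (0.975) and AT2G18876 (0.965), and GASA4 to AT2G45340 (0.989) and EXPA4 (0.983). For GASA2 they were HSP21 (0.997), a small heat shock protein of the chloroplast, and AT1G69360 (0.989), and for GASA3 AT5G66780 and AT4G02360 (both 0.997). GASA10 was most like AT4G23493 and AT1G07500 (both 0.980), and GASA5 most like AT1G20470 (0.959) and AT4G09920 (0.955).

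Of 6 further genes of the family, only AT2G14900 passed the filter on low values. It fell by 0.75 ± 0.11 in cold (adjusted p = 1.543e-06) and fell by 0.66 ± 0.11 in cold-high light (adjusted p = 4.068e-06). It was higher by 0.40 ± 0.11 in humidity (adjusted p = 0.0204) and by 0.45 ± 0.11 in heat-drought (adjusted p = 0.000331). As deposited the cold-high light value was -0.15 and did not pass, and the heat-drought value was 1.19. The other 5 stayed at or under 3.08 in every library, and AT1G10588 was listed at 0.

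Of 28 listed genes of synthesis, breakdown and signalling, 22 were tested, and over the 8 end-points 24 pairs of gene and end-point were higher and 41 lower. As deposited 44 were higher and 3 lower. In drought 9 of 22 were higher and 8 lower, and in heat-drought 10 and 10. As deposited these were 15 and 1, and 13 and 1. Over all genes the shares higher and lower were the 25.3% and 42.2% of drought and the 32.2% and 46.5% of heat-drought given above, or 61.4% and 9.57%, and 66.7% and 13.2%, as deposited. Cold gave 2 higher and 8 lower and cold-high light 3 and 10, or 6 and 0 and 10 and 1 as deposited, beside the shares of all genes given above for these groups. Humidity lowered 3, high light 1 and heat-high light 1, and heat 0, all of which were 0 as deposited. In that order, 2.31%, 0.689%, 0.0842% and 0.431% of all genes were lower. As deposited 243, 84, 12 and 22 of 19010 genes were lower. Drought shifted the median of the 22 genes by 0.02 and heat-drought by -0.13, while the median of all genes tested shifted by -0.13 and -0.15. In recovery 0 differed from the control.

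Of the listed genes, 3 differed by at least 1. RGL3, a DELLA repressor, rose from 4.94 ± 0.12 in the control to 6.75 ± 0.37 in drought and 7.20 ± 0.09 in heat-drought (SD, n = 3). The differences were 1.27 ± 0.15 (adjusted p = 1.32e-09) and 1.52 ± 0.15 (adjusted p = 4.305e-12). GID1B, a gibberellin receptor, rose from 5.62 ± 0.26 to 7.68 ± 0.19 in heat-drought, by 1.33 ± 0.19 (adjusted p = 1.003e-07) and by 2.06 as deposited. GA20OX1, an oxidase of gibberellin synthesis, fell from 5.82 ± 0.14 to 5.29 ± 0.03 in heat-drought, by -1.27 ± 0.11 (adjusted p = 4.104e-13) and by -0.53 as deposited (adjusted p = 2.158e-06). The DELLA genes RGA and GAI, picked after their values were seen, went the other way from RGL3. In heat-drought RGA differed by -0.85 ± 0.11 and GAI by -0.96 ± 0.12 (adjusted p = 5.476e-09 and 3.748e-09), and by -1.01 and -1.08 under quantile normalization. As deposited they differed by -0.12 and -0.23 and did not pass.

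**Figure D4:**
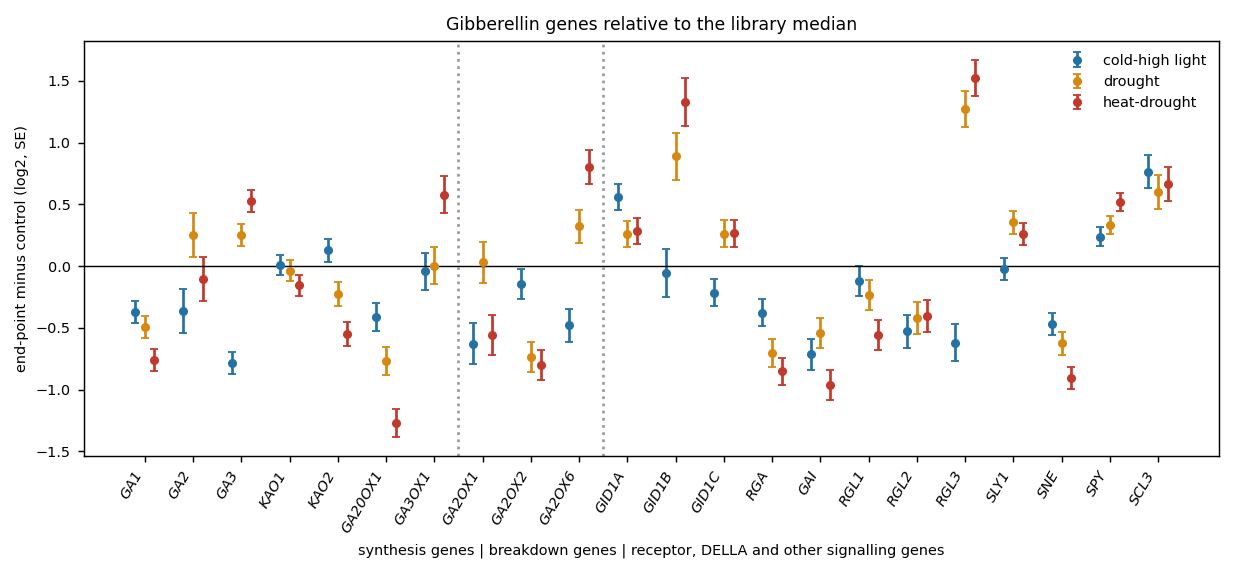
End-point minus control for 22 gibberellin genes in cold-high light, drought and heat-drought, as log2 relative to the library median with SE bars. Dotted lines separate synthesis, breakdown and signalling genes. RGL3 reaches 1.52 and GID1B 1.33 in heat-drought, where GA20OX1 lies at -1.27.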

How the data were processed

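RNA from rosettes was sequenced in paired reads of 150 bases. The submitters' processing notes name the tools STAR, Trimmomatic, DESeq2 and featureCounts and the build TAIR10. Tool versions are not given in the sources used here. What the authors deposited is a table of rlog values (DESeq2's regularized logarithm, on a log2 scale) for 28775 genes. Read counts were not used here, so depth is unknown. Of its columns, 51 matched 51 of 57 samples by name. A further 6 columns of per-sample values matched no sample and were not used, so 2 of 19 groups were not analysed here.

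Tests covered the 19010 genes whose mean rlog reached 3, after each library was centred on its median over them. Tests used limma 3.58.1 in R 4.3.3 (data.table, version 1.17.8) over all 51 libraries, 1 mean per group, two-sided, with intensity trend and robust variances. Benjamini-Hochberg adjustment ran over all genes tested per comparison, at 0.05. The procedure was tested on simulated data in which few genes changed, in the drought end-point group only. Centring under the wide shifts of drought and heat-drought was not tested by it. Figures were drawn with matplotlib 3.10.9, numpy 2.4.6 and pandas 2.3.3 under Python 3.11.15.

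The members and gene lists were chosen with earlier results of these data known. All 9 members are named, and of the other lists those genes that passed with a difference of at least 1 at an end-point, at most 6 per comparison. Alike genes are the 5 nearest to GASA6 and the 2 nearest to each other member by Pearson's r over group means.

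Groups share replicate numbers in the labels, with no statement that these pair samples. Over 24 comparisons, correlations of same-numbered deviations ran from -0.73 to 0.43. All 3 exceeded 0.1 in 3 comparisons, the end-points of heat, high light and heat-high light against the control, where the numbers were taken to pair the libraries. For these the blocked fit of the compared groups alone was added after the data were seen. Pearson's r between replicates was 0.980 to 0.998, and 0 libraries were identical to another. Alternatives were values as deposited, quantile normalization, no filter, a mean of at least 5, only the groups compared, no trend and no robust variances, the replicate block and leaving out each library.

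Coordinates and sequences come from TAIR10.1, while the table holds locus identifiers alone.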

Additional observations from a re-analysis of the deposited data

Results flagged for a closer look

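In 3 genes tested in every group the effect of drought at the end-point differed between warm and standard temperature in limma's test of the heat by drought interaction, relative to the library median. The interaction was -1.47 for GASA4 (adjusted p = 0.00248), with values from -1.77 to -1.15 over 19 alternatives and adjusted p from 0.000117 to 0.121. GASA5 gave -0.83 (adjusted p = 0.000754), with adjusted p from 0.000244 to 0.0473 over 18 alternatives. GASA14 gave -0.84 (adjusted p = 0.0356), with adjusted p from 0.00417 to 0.230, and 7 of 19 alternatives ended the call. Without heat-drought end-point replicate 3 it was -0.53. For GASA2, which passed the filter on low values only through drought and heat-drought, the value was 0.94 (adjusted p = 0.00807 in the fit without that filter). It was 0.59 without heat-drought end-point replicate 3.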

How the results depend on the processing

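Scaling moved more calls than any other choice. The 65 member results that passed include those of GASA2 and GASA3 over the filtered genes, which they joined only through drought and heat-drought. Of the 65, 48 kept direction and call as deposited, 52 under quantile normalization and 65 without the filter. The number kept was 32 of 32 at a mean of at least 5 and 55 with only the groups compared. It was 65 without trend and robust variances and 64 with the replicate block. Leaving out a library kept 370 of 404. As deposited 14 members were higher and 7 lower at the end-point, 6 were higher and 11 lower in recovery than at the end-point, and 44 gibberellin genes were higher and 3 lower. A mean of at least 5 removes GASA2, GASA3, GASA5 and GASA10. It left 7 pairs of member and stress higher in recovery than at the end-point, and 5 pairs differing between end-points. With only the groups compared, 1 interaction passed. Directions turned as deposited for 7 of the 65. These were GASA2 (0.0552) and GASA5 (0.218) in cold-high light, GASA4 in drought (0.0267) and GASA5 in heat-drought (0.154). The others were GASA5 in drought against humidity (0.0959), and in recovery against end-point after drought (-0.0475) and heat-drought (-0.0493). A further 2 results, not called relative to the library median, passed as deposited with the other sign. They were GASA5 in drought (0.358) and GASA4 in recovery against end-point after cold-high light (-0.488, from 0.0019). Quantile normalization turned GASA2 (0.0157) and GASA5 (0.0495) in cold-high light. The cause was not tested.

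Leaving out each library in turn gave 6 to 8 members higher and 10 to 13 lower at the end-point, 0 to 1 differing in recovery, 12 to 13 higher and 6 to 8 lower in recovery than at the end-point, 7 to 9 between end-points, 2 to 4 interactions, and 0 to 0 in the F test. For gibberellin genes it gave 19 to 24 higher and 30 to 42 lower. The 1 in recovery was GASA5 without cold-high light recovery replicate 3, and without replicate 2 of that group GASA5 did not pass. The replicate block over all libraries gave 8 of 48 pairs of member and end-point higher and 13 lower. It ended 1 call, GASA3 in recovery against end-point after cold-high light (adjusted p = 0.0508 in limma over the filtered genes). It added calls for GASA5 (adjusted p = 0.0428) and GASA9 (0.0269) in heat and GASA9 in recovery from heat against its end-point (0.0341), and changed no other member call. That GASA3 call (1.47 ± 0.64, adjusted p = 0.0437 without the filter) was also lost without cold-high light recovery replicate 2 (1.03, adjusted p = 0.227 over the filtered genes). Depth is unknown, so no detection limit was drawn, and rlog understates differences of weakly expressed members.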
